A study of Mus musculus with 8 samples.

Results

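mmu-miR-451, mmu-miR-144 and mmu-miR-486 (here miR-451, miR-144 and miR-486), the 3 microRNAs (miRNAs) best known from red blood cells, were followed across 8 lung samples of female C57BL/6 mice. They were taken by their exact names on the array, as 3 of the 611 mouse miRNAs it measures. In the 4 Printex 90 samples the dams had received a cumulative 0.268 mg of Printex 90, a commercial carbon black nanoparticle, in nanopure water, instilled through the trachea in 4 portions of 0.067 mg on days 7, 10, 15 and 18 of gestation. The 4 vehicle control samples came from dams instilled with nanopure water alone, and all lungs were collected at weaning, 26 to 27 days after exposure. All samples were whole lung RNA, so no cell type was isolated, and the labels do not say whether blood was rinsed out of the lungs. Whether every array holds RNA of a different animal is not stated either, and p-values below therefore reflect only how far these samples spread, which may in part be technical. The 4 Printex 90 samples lay in one row of the slide and the 4 controls in the other, which means that slide row and treatment cannot be told apart.

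Red blood cells in mammals carry no nucleus but keep a large store of small RNA. miR-451 and miR-144 are cut from one transcript that the erythroid factor GATA1 switches on as red cells mature. miR-451 is known for its unusual maturation, in which the slicing protein AGO2 and not Dicer cuts the hairpin, and in mouse red cells it restrains 14-3-3 zeta and so protects against oxidative damage. miR-144 targets the antioxidant regulator Nrf2. miR-486 is made in erythroid cells and also in striated muscle. In a tissue as full of blood as the lung, these miRNAs are commonly read as a measure of how many red cells the sample held. In whole tissue, fewer red cells and less of a miRNA per cell cannot be told apart.

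The sequences below show what the array names stand for, with bases 2 to 8, the seed that pairs with target RNAs, in capitals in each mature miRNA, and the mature miRNA in capitals in each hairpin. RefSeq sequences (GRCm38.p6) were matched for 2 of the 3 miRNAs, miR-451 (miR-451a) and miR-144 (miR-144-3p). Mature miR-451a lies at chr11:78073186-78073207 and mature miR-144-3p at chr11:78073047-78073066, both on the plus strand.
miR-451a: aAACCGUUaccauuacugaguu
miR-144-3p: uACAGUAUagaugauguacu
miR-101a-3p: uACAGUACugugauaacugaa
Mir451a hairpin: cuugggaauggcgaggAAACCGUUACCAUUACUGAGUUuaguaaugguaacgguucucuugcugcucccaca
Mir144 hairpin: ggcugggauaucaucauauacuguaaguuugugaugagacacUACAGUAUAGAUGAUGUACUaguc
The hairpins of miR-144 and miR-451 are neighbours, with 99 bases between them. miR-451 fills positions 17 to 38 of its hairpin of 72 bases and so runs past the middle, while miR-144-3p sits on the 3′ arm, at positions 43 to 62 of 66. The 2 seeds differ, and 0 of the other mature mouse miRNAs in the RefSeq table share bases 2 to 8 with either. miR-101a-3p (chr4:101346957-101346977, minus strand) shares bases 2 to 7 with miR-144-3p, and it is shown for that reason. The gene of miR-486 lies within the span of Ank1, which encodes ankyrin, an anchor of the red cell membrane skeleton.

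All 3 miRNAs were well above background on all 8 arrays. Each signal was divided by a scaling value of its array, the 75th percentile of the 240 mouse miRNAs found on every array, so a value can be compared between arrays for 1 miRNA but not between miRNAs.

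mmu-miR-451 measured 20.4, 27.8, 19.8 and 28.1 in Printex 90 replicates 1 to 4, against 42.6, 17.9, 25.9 and 27.6 in vehicle control replicates 1 to 4. Both the highest and the lowest value belonged to controls, and the 4 Printex 90 samples lay between them. The means were 24.0 ± 4.55 after Printex 90 and 28.5 ± 10.3 in controls (SD, n = 4 each).

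mmu-miR-144, the partner of miR-451 in its transcript, measured 1.81, 2.26, 1.75 and 2.23 in Printex 90 replicates 1 to 4, against 3.79, 1.61, 2.39 and 2.28 in vehicle control replicates 1 to 4. Vehicle control replicate 1 was again the highest sample and vehicle control replicate 2 the lowest. The means were 2.01 ± 0.27 after Printex 90 and 2.52 ± 0.914 in controls (SD, n = 4 each).

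mmu-miR-486, which comes from another chromosome, measured 0.242, 0.268, 0.227 and 0.278 in Printex 90 replicates 1 to 4, against 0.474, 0.215, 0.302 and 0.266 in vehicle control replicates 1 to 4. The same 2 controls stood at the ends of the range. The means were 0.254 ± 0.0233 after Printex 90 and 0.314 ± 0.112 in controls (SD, n = 4 each).

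**Figure D1:**
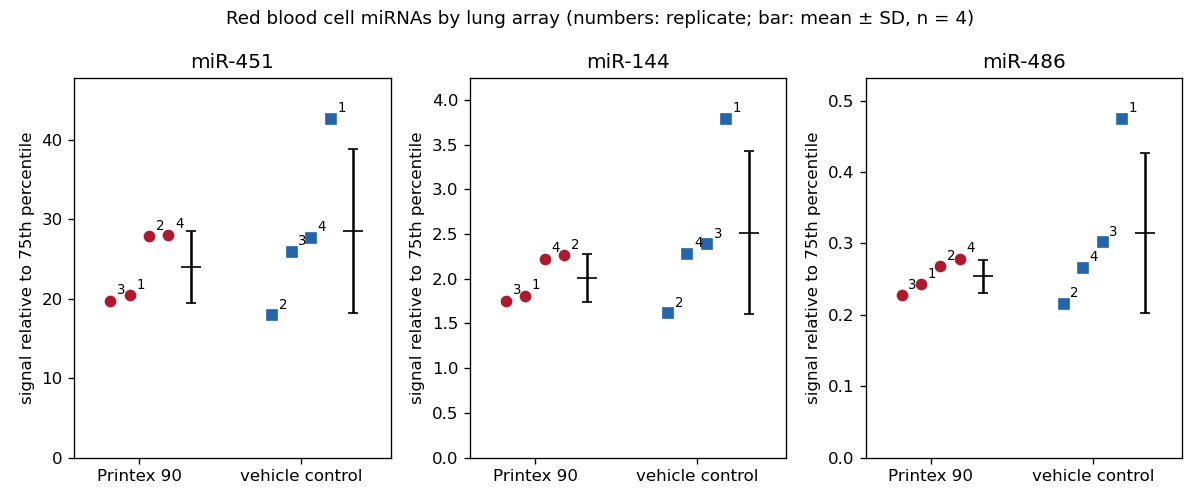
Signal of miR-451, miR-144 and miR-486 relative to each array's 75th percentile (y axis, linear from 0) in the Printex 90 and vehicle control samples. Each point is 1 array with its replicate number and bars show mean ± SD (n = 4); in each panel vehicle control replicate 1 is highest, vehicle control replicate 2 is lowest and the 4 Printex 90 samples lie between them.

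The comparison of Printex 90 with vehicle control asks whether the red cell miRNAs of the lung differed weeks after repeated particle instillation. None of the 3 differed beyond the spread between arrays. The log2 difference (Printex 90 minus vehicle control) was -0.20 for miR-451 (SE 0.27, limma adjusted p = 0.775), -0.27 for miR-144 (SE 0.25, limma adjusted p = 0.767) and -0.25 for miR-486 (SE 0.23, limma adjusted p = 0.767). Exact permutation tests over the 70 ways of splitting the arrays gave p = 0.657, 0.486 and 0.457 (2-sided, in the same order). Over all 268 tested mouse miRNAs limma called 0, which is 0.0%, and 15 (5.6%) had an unadjusted p under 0.05, none of them these 3. The 2 groups overlapped for each of the 3 miRNAs, while they did not overlap for 1.49% of all tested miRNAs. The median log2 difference was -0.25 for the 3 miRNAs and -0.05 over all tested.

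The intervals show what sizes of difference these arrays leave possible. The Printex 90 to vehicle control ratio was 0.871 for miR-451 (95% interval 0.560 to 1.36), 0.832 for miR-144 (0.551 to 1.26) and 0.842 for miR-486 (0.576 to 1.23). The size of each lower mean depended on which extreme controls were kept. Without vehicle control replicate 1 the log2 difference was 0.02 for miR-451, -0.05 for miR-144 and -0.03 for miR-486. Without vehicle control replicate 2 it was -0.40, -0.46 and -0.41, with no limma call in either case. With both left out, a setting added after seeing the data, it was -0.17, -0.22 and -0.16.

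The 3 miRNAs varied together from array to array. Over the 8 arrays miR-144 and miR-486 had Pearson r = 0.984 (exact permutation p = 0.000149, adjusted over the 3 pairs 0.000446) and Spearman rho = 0.905 (exact permutation p = 0.00456, adjusted 0.0137). For miR-451 and miR-144 the values were r = 0.980 (exact permutation p = 0.00104, adjusted 0.00131) and rho = 0.762 (exact permutation p = 0.0368, adjusted 0.0368). For miR-451 and miR-486 they were r = 0.939 (exact permutation p = 0.00131, adjusted 0.00131) and rho = 0.857 (exact permutation p = 0.0107, adjusted 0.0161). After the group means were subtracted, r was 0.981, 0.984 and 0.938 in the same order. Each group alone has too few arrays for a correlation of its own.

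The strength of that relation leaned on the extreme controls. Without vehicle control replicates 1 and 2, the farthest arrays from the median for each pair, the 6 remaining arrays gave r = 0.932 for miR-144 and miR-486 (exact permutation p = 0.00833), 0.939 for miR-451 and miR-144 (exact permutation p = 0.0583) and 0.803 for miR-451 and miR-486 (exact permutation p = 0.0625). The coefficients stayed high, but those of the 2 pairs with miR-451 no longer passed 0.05.

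**Figure D2:**
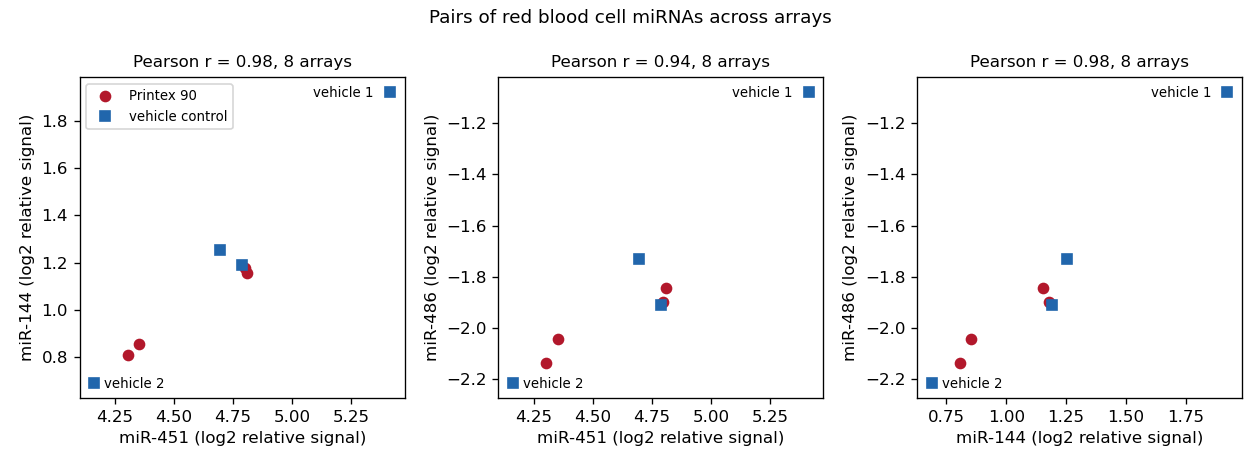
Log2 relative signal of each pair of the 3 miRNAs, with 1 point for each of the 8 arrays, circles for Printex 90 and squares for vehicle control. In each panel the points lie along a rising line (r = 0.980, 0.939 and 0.984), with vehicle control replicate 1 at the upper end and vehicle control replicate 2 at the lower end.

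Ratios taken within an array cancel the scaling and show how tightly the set held together. The log2 ratio of miR-451 to miR-144 was 3.57 ± 0.08 after Printex 90 and 3.50 ± 0.07 in controls (SD, n = 4 each). The size of that ratio depends on the probes, so only its change between arrays is read. It spanned 1.16-fold over the 8 arrays, whereas miR-451 itself spanned 2.38-fold and miR-144 2.35-fold. The difference between groups was 0.07 (exact permutation p = 0.171, 2-sided). The ratio of miR-144 to miR-486 spanned 1.15-fold and differed between groups by -0.02 (exact permutation p = 0.743), and that of miR-451 to miR-486 spanned 1.25-fold and differed by 0.05 (exact permutation p = 0.714).

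The spread of the 3 miRNAs between arrays was large for this data set. Their range over the 8 arrays was 2.38-fold for miR-451, 2.35-fold for miR-144 and 2.21-fold for miR-486, against a median range of 1.30-fold for the 237 others seen on every array. By the within-group SD of the log2 signal, miR-451 (0.41) ranked 8th of 240, miR-144 (0.38) ranked 9th and miR-486 (0.35) ranked 12th from the highest. The top of that ranking was held by miR-1, miR-133a and miR-133b of striated muscle, with a within-group SD between 1.37 and 1.39.

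**Figure D3:**
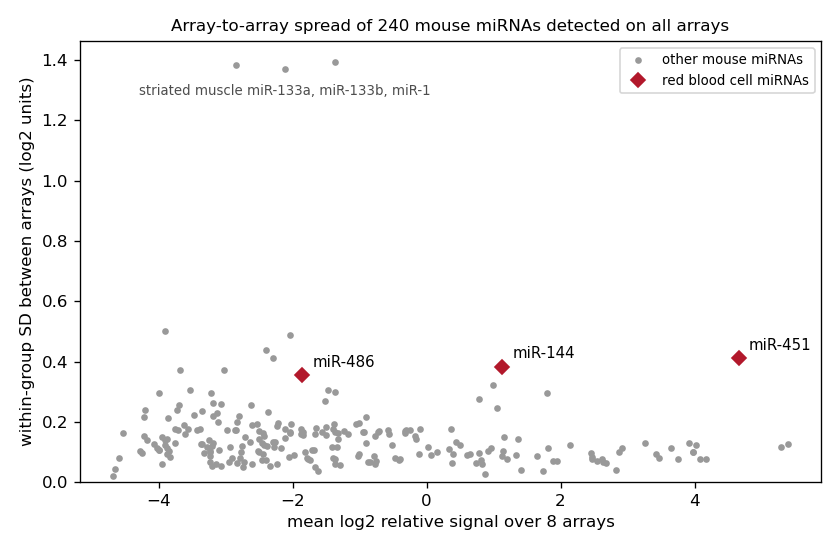
Within-group SD of the log2 relative signal between arrays (y axis, log2 units) against the mean log2 relative signal (x axis) for the 240 mouse miRNAs detected on all arrays. Diamonds mark miR-451 (0.41), miR-144 (0.38) and miR-486 (0.35), which rank 8th, 9th and 12th of the 240, and the striated muscle miRNAs are labelled at the top.

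Controls spread more than Printex 90 samples for all 3, though not beyond what the test allows. For log2 miR-451 the Printex 90 SD was 0.28 and the control SD 0.51, a difference of -0.24 (exact permutation p = 0.429, adjusted over the 3 miRNAs 0.429). For miR-144 the Printex 90 SD was 0.19 and the control SD 0.51 (exact permutation p = 0.286, adjusted 0.429), and for miR-486 the Printex 90 SD was 0.13 and the control SD 0.48 (exact permutation p = 0.257, adjusted 0.429). Without vehicle control replicate 1, the control SDs were 0.34 for miR-451, 0.31 for miR-144 and 0.25 for miR-486.

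Measurement noise within an array was far smaller than these differences. Each miRNA was read by 2 probes with 10 spots each, of which 15 to 20 spots in all were kept per array for miR-451, 17 to 20 for miR-144 and 16 to 20 for miR-486, and 0 were saturated. The coefficient of variation between spots of a probe had a median of 3.06% for miR-451, 2.66% for miR-144 and 5.06% for miR-486. From the spots alone, the standard error of an array's value was at most 0.947%, 0.798% and 1.46% for the 3 miRNAs. Spots flagged as outliers had been left out first, which can make these figures smaller. For miR-451, 6 of 10 spots were kept for 1 probe on vehicle control replicate 1 and for the other on vehicle control replicate 4. The probes of each miRNA gave like results: the log2 differences were -0.22 and -0.19 for the probes of miR-451, -0.27 and -0.26 for miR-144, and -0.25 and -0.25 for miR-486, and the 2 probes of each miRNA correlated over the 8 arrays with r of 0.997.

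Vehicle control replicate 1 set the top of every range. It exceeded the next highest array by 1.52-fold for miR-451, 1.59-fold for miR-144 and 1.57-fold for miR-486. Of the 237 other miRNAs detected on all arrays, it held the highest value of 38 and the lowest of 2, the fewest lowest values of any array, while vehicle control replicate 3 held the highest of 65 and the lowest of 13. Vehicle control replicate 2, the lowest array for all 3, held the lowest value of 7 of the 237. The number of detected mouse miRNAs per array, a sign of array sensitivity, correlated with miR-451 at r = 0.668 (exact permutation p = 0.0717, adjusted over 9 relations 0.443) and rho = 0.707 (exact permutation p = 0.0595), and with miR-144 at r = 0.592 (exact permutation p = 0.116, adjusted 0.443) and rho = 0.778 (exact permutation p = 0.0301). With miR-486 the values were r = 0.459 (exact permutation p = 0.264, adjusted 0.490) and rho = 0.611 (exact permutation p = 0.118). Without the 2 arrays with the most detected miRNAs r was 0.939 for miR-451, 0.960 for miR-144 and 0.973 for miR-486, with no p-value taken. Among the 6 arrays left, vehicle control replicate 1 stood apart with 274 detected, against 248 to 259 on the rest. Over all 8 arrays r with the log2 75th percentile before scaling was 0.562, 0.443 and 0.304. With the share of flagged spots it was 0.188, 0.039 and -0.050, in the same order. The part of array sensitivity in the spread of the 3 miRNAs was not tested. Before scaling, the 75th percentile ran from 580.8 to 720.6 after Printex 90 and from 628.4 to 804.7 intensity units in controls.

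The other miRNAs did not share this pattern to the same degree. Of the 237 others, 0 reached a Pearson r of 0.9 with any of the 3 over the 8 arrays, and the median r was 0.00848 with miR-451, 0.0517 with miR-144 and 0.0755 with miR-486. The 5 most like miR-451 were miR-106b (r = 0.835), miR-25 (0.717), miR-93 (0.701), miR-15b (0.700) and miR-181a (0.680). For miR-144 they were miR-25 (0.798), miR-106b (0.781), miR-93 (0.767), miR-181a (0.748) and miR-16 (0.700). For miR-486 they were miR-25 (0.830), miR-93 (0.798), miR-222 (0.780), miR-181a (0.707) and miR-16 (0.702). These are descriptions of 8 arrays, chosen as the highest of 237. Their own ranges, from 1.15-fold for miR-16 to 1.36-fold for miR-25, lay around the median of 1.30-fold for the 237 others and below those of the 3 miRNAs. miR-101a, which shares bases 2 to 7 with miR-144, spanned 1.17-fold and had r = 0.444 with it.

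Other miRNAs known to be plentiful in red cells, but made in many other cells too, moved little. Of 10 listed, 8 were on the array and 7 were tested, of which 2 were higher, 5 lower and 0 called. The median log2 difference was -0.03 and the lowest limma adjusted p 0.724. For this and the lists that follow, the counts over all 268 tested miRNAs were 85 higher and 176 lower. miR-16, which targets cell cycle genes, measured 5.77 after Printex 90 and 5.91 in controls, and miR-25 measured 0.670 after Printex 90 and 0.728 in controls. miR-92a (log2 difference -0.04), miR-15a (-0.04), miR-15b (0.02), miR-22 (-0.03) and the hypoxia miRNA miR-210 (0.05) also lay near no difference, and miR-363 was detected on 0 arrays. The summed signal of the list ran from 18.6 to 20.9 after Printex 90 and from 19.4 to 21.1 in controls. Its highest value, 21.1, fell on vehicle control replicate 1. Its next highest, 20.9, fell on Printex 90 replicate 3, where the sum of miR-451, miR-144 and miR-486 ranked 7th from the highest. Brighter miRNAs weigh most in the sum of the list, and its single miRNAs differed. Over the 8 arrays r with miR-451 was 0.717 for miR-25, 0.700 for miR-15b and 0.669 for miR-16. It was 0.313 for miR-15a, 0.204 for miR-210, 0.040 for miR-22 and 0.002 for miR-92a.

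miRNAs that fall as red cells mature gave 2 higher, 4 lower and 0 called of 6 tested (median log2 difference -0.05). They include miR-221 (-0.03) and miR-222 (-0.08), which repress the stem cell receptor Kit, together with miR-24 (-0.09), miR-150 (-0.14), miR-223 (0.18) and miR-155 (0.50). miR-155 had an unadjusted limma p of 0.0353 and a limma adjusted p of 0.706. miR-150, miR-223 and miR-155 also belong to the white blood cell list that follows, so the 2 lists are not separate.

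Of 7 white blood cell miRNAs tested, 3 were higher, 4 lower and 0 called (median log2 difference -0.02). Their summed signal was 9.55, 8.97, 10.1 and 9.81 in Printex 90 replicates 1 to 4, against 8.24, 10.4, 8.88 and 9.21 in vehicle control replicates 1 to 4. The lowest sum thus belonged to vehicle control replicate 1, which had the most miR-451, and the highest to vehicle control replicate 2, which had the least. The sum weighs the brighter miRNAs most, and the single miRNAs differed: over the 8 arrays r with miR-451 was -0.561 for miR-142-3p, -0.713 for miR-223, -0.192 for miR-142-5p and 0.00848 for miR-342-3p, and from -0.344 to -0.277 for miR-155, miR-150 and miR-146a. Negative values were not particular to white blood cell miRNAs. For the lung epithelial miRNAs r with miR-451 ran from -0.568 to -0.193. For miR-143 and miR-145 of vascular smooth muscle it was -0.509 and -0.418. For the endothelial miR-126-3p and miR-126-5p it was 0.442 and 0.426. The part of the white blood cell miRNAs in the spread of the red cell miRNAs was not tested.

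The tissue markers were present. All 8 lung epithelial miRNAs, among them miR-200a and miR-34b-5p, and both endothelial strands, miR-126-3p and miR-126-5p, were detected on all 8 arrays, as were miR-143 and miR-145 of vascular smooth muscle. After Printex 90, 8 of 8 lung epithelial miRNAs were higher (median log2 difference 0.09) and 2 of 2 endothelial lower (-0.15). The groups overlapped for each of these miRNAs, and the lowest limma adjusted p was 0.706 in both lists. Members of 1 list need not be separate readings, as with the 2 strands of miR-126. Vascular smooth muscle had 2 of 2 lower (-0.08) and striated muscle 4 of 4 tested lower (-0.74), with 0 limma calls in each list. The striated muscle differences were -0.77 for miR-1 (SE 0.91), -0.75 for miR-133a (SE 0.90) and -0.74 for miR-133b (SE 0.90), each smaller than its SE. That of miR-206 was -0.30 (SE 0.13), with signals near the floor of 0.0388. Over all 268 tested miRNAs 176 were lower and 85 higher, so most miRNAs leaned lower. The part of these lists in the lower means of the red cell miRNAs was not tested. The summed endothelial signal ran from 34.4 to 42.3 after Printex 90 and from 37.3 to 43.0 in controls. Of 7 striated muscle miRNAs 3 were detected on all arrays, and the heart miRNAs miR-208a, miR-208b and miR-499 were detected on 0. The summed muscle signal was highest on Printex 90 replicate 1 (3.06), where miR-486, which muscle also makes, measured 0.242 and lay below its group mean. On vehicle control replicate 1, with the highest miR-486, the muscle sum was 0.984. The part of muscle in the miR-486 signal was not tested. The liver miRNA miR-122 was detected on 7 arrays.

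**Figure D4:**
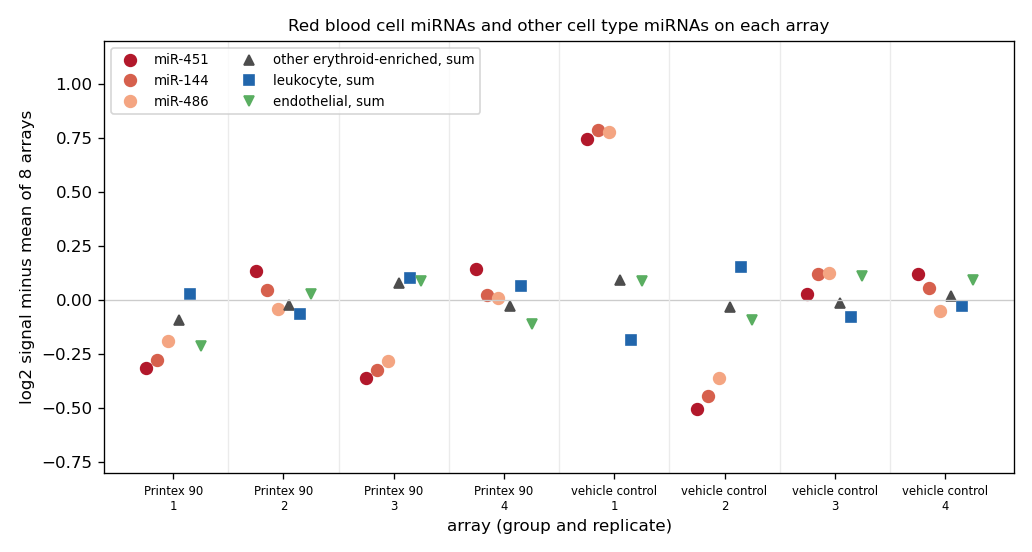
Log2 signal minus the mean of the 8 arrays (y axis) for miR-451, miR-144, miR-486 and the summed signal of 3 other miRNA lists, with 1 column per array, Printex 90 samples to the left. The 3 red blood cell miRNAs peak together on vehicle control replicate 1 and dip together on vehicle control replicate 2, where the leukocyte sum is at its lowest (8.24) and its highest (10.4).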

How the data were processed

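The 8 lung samples were each hybridised to a Cy3 Agilent miRNA array, after extraction with a miRvana kit per the labels' protocols. The deposited spot intensity values were made, per the file headers, with Feature Extraction 10.7.3.1, with the background subtracted and no normalization between arrays. A value table deposited by the authors, in log2 and with unstated processing, served as an alternative.

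Groups came from the sample titles. Spots flagged as outliers (2.25% to 2.76% per array) and control spots were left out, the spots of a probe averaged and the probes of a miRNA summed. Detection on an array required 50% of the spots of 1 probe to be well above background. Signals were scaled by the array's 75th percentile (of 240 mouse miRNAs found on every array), floored at 0.0388 (the 5th percentile of detected signals), and log2 was taken. limma 3.58.1 in R 4.3.3 was fitted to the 268 mouse miRNAs found on 4 arrays or more (lmFit and eBayes), 2-sided, with Benjamini-Hochberg adjustment over all of them, and the fit was tested on simulated data. Single values were compared by exact permutation, for which 4 against 4 arrays can go no lower than 0.0286. The miRNAs named are the 3 members, members of the lists of cell type miRNAs, and the 5 most correlated with each member. miR-101a was added for its sequence. The members and lists were chosen with earlier results of these data known. Alternatives covered scaling, background, probe summary, floor, filter, spread model, array weights, a replicate block and each array left out. The number of arrays limits the precision.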

Additional observations from a re-analysis of the deposited data

Results flagged for a closer look

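In 26 groups of 4 arrays, covering the 3 miRNAs, their ratios and the 7 miRNAs most like them, the gap between the extreme array and its nearest neighbour was set against Dixon's 95% limit on its share of the group's range. It was exceeded in 2. Chance exceeds it in about 1 of 20 groups, but that rate does not apply to these 2, since both miRNAs were chosen for correlating with miRNAs that are highest on vehicle control replicate 1. miR-25 was high on vehicle control replicate 1 (log2 relative signal -0.23, next highest control -0.51, gap 0.851 of the range). miR-93 was high on the same array (-0.79, next highest control -1.02, gap 0.872 of the range). The signals of miR-451, miR-144 and miR-486 on that array stayed within the limit.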

How the results depend on the processing

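The lower mean of miR-144 and miR-486 after Printex 90 kept its sign under all 22 alternatives, with log2 differences from -0.46 to -0.05 and from -0.41 to -0.03, and 0 limma calls. miR-451 kept it under 21 (from -0.40) and was 0.018 without vehicle control replicate 1. The alternatives of floor, filter, spread model and replicate block left each miRNA's difference exactly as it was. The sign could not turn under those, so they do not test it. Over the alternatives the lowest limma adjusted p was 0.619 for miR-451 and 0.499 for miR-144 and miR-486. The count of called miRNAs was 0 in each alternative except without Printex 90 replicate 3 (2, so 0 to 2 with 1 array left out). With quantile normalization r fell to 0.767 for miR-451 and miR-144 and to 0.869 for miR-451 and miR-486 (exact permutation p = 0.125 adjusted, each). There miR-451 ranked 3rd on 7 arrays, which gives it the same normalized value on those 7. With those ties the exact permutation p of a pair with miR-451 can go no lower than 0.125. It could therefore not pass 0.05 under that setting. Leaving out vehicle control replicates 1 and 2 together was added after seeing the data: r was 0.939 for miR-451 and miR-144 and 0.803 for miR-451 and miR-486 (exact permutation p = 0.0625 adjusted, each), and the difference in SD (Printex 90 minus vehicle control) turned to 0.21 for miR-451, 0.15 for miR-144 and 0.0060 for miR-486, with 2 controls left. All other settings kept the 3 correlations past 0.05. The replicate numbers gave no sign of pairing: deviations of same-numbered arrays correlated at -0.139, -0.604, -0.384 and 0.75. Arrays of the 2 groups with unlike numbers ran from -0.904 to 0.722, so these values cannot settle whether pairs existed. With the replicate number as a block the limma adjusted p was 0.796 for miR-451 and 0.777 for miR-144 and miR-486, and 0 miRNAs were called. The files hold no mean spot signal, so normexp used the median spot signal.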
